A study of Mus musculus with 20 samples.

Results

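The immediate early genes described here are 38 of the 49671 gene identifiers counted in each library, chosen by name as genes that neurons and other cells transcribe within minutes to hours of a stimulus. All 38 were matched by symbol to an Ensembl identifier, and all 38 were among the 18427 genes that passed the filter on low counts. In a split chosen for this report, 21 are called rapid and 15 delayed, and Jund and Rheb, which most cells express steadily, were kept apart. The classes are labels, and when or how each member is induced was not measured here. The build is not named in the sources used here, and the coordinates in the deposited tables match gene models of GRCm38.

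When a neuron fires, calcium entry and the MAP kinase and CREB pathways switch on rapid genes from factors already bound at their promoters, with no new protein needed. Many rapid genes encode transcription factors, such as Fos, Egr1, Npas4 and Nr4a1, and these in turn act on delayed genes that encode secreted, synaptic or signalling proteins, such as Nptx2 and Inhba. In the hippocampus these transcripts are used as a record of recent neuronal activity, as in novelty, learning, seizure or handling, and they decay quickly.

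RNA came from 1 frozen hippocampus of each of 20 wild-type male mice aged 10 to 12 weeks, with 5 mice in each of 4 groups, labelled CONTROL, CONTROL + ICI, MELANOMA and MELANOMA + ICI and called control, ICI, melanoma and melanoma plus ICI below. Control and melanoma mice received isotype-matched antibodies by intraperitoneal injection. ICI stands for immune checkpoint inhibitors, here anti-CTLA-4 at 1 mg per dose, 3 times per week, with anti-PD-1 at 200 µg per dose, 2 times per week. Both melanoma groups carried D4M-3A.UV2 tumours, a syngeneic mouse melanoma line injected into the skin of both sides at 500000 cells per injection and left for 1 week before antibodies began. The labels give 3 weeks of ICI for the tumour-bearing group. Mice in every group were killed 72 hours after their final injection, so each value is a level in tissue at death and not a response to a timed stimulus. Nothing in the labels tells the time of day, the order of dissection or the handling before death.

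Libraries held 21990624 to 25735149 counts, and the lowest count of a member in a library was 10. On the first principal component of all tested genes, which held 23.4% of the variance, control replicate 4 stood at -71.4 and melanoma plus ICI replicate 1 at -61.5, with the other libraries between -27.5 and 40.9. The striatum score, the mean log2 CPM of 7 striatal markers, was 5.16 to 6.52 in melanoma replicates 1, 3 and 5 and melanoma plus ICI replicate 3, and at most 3.43 in the other libraries. All 7 hippocampal excitatory neuron markers passed the filter on low counts, and their score was 5.65 to 7.75 over the libraries. In whole tissue, fewer cells of a type and less RNA per cell cannot be told apart.

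The promoters of several rapid members carry letters of the cAMP response element, which CREB binds, and a few are shown beside those of delayed members. The letters TGACG were searched on both strands in the 250 bases before each transcription start in RefSeq (GRCm38.p6), where a full palindromic element counts as 2 matches. A window was found for 28 of the 38 members, and Arc, Egr1 and Nptx2 are among those without one. A gene with several windows was counted by the window with the most matches. All genes here are those with a window, whether or not they were tested for expression. At least 1 match stood in 18 of 28 members (64.3%), in 13 of 16 rapid members (81.2%) and in 4 of 10 delayed members (40%), beside 19.8% of all 27025 genes in the table. At least 2 matches stood in 39.3% of the members and in 4.46% of all genes. A CArG box, the letters that serum response factor binds, stood in 2 of 28 members (7.14%) and in 1.62% of all genes. A match is a description of the letters and shows no binding. In the windows below, written 5′ to 3′ on the strand of the gene, capitals mark each match, and positions count back from the start, with -1 as the base just before it. Fos (chr12:85473640-85473889, plus strand) has matches that begin at -129 and -66, Nr4a1 (chr15:101266596-101266845, plus strand) at -233, -213, -69 and -40, and Npas4 (chr19:4989972-4990221, minus strand) at -179 and -169. The matches did not follow timing throughout: rapid Jun, Ier5 and Gadd45b have 0, and delayed Nr4a2 and Nr4a3 have 4 each. Nr4a2 (chr2:57124004-57124253, minus strand), with matches at -200, -144, -123 and -111, and Inhba (chr13:16011601-16011850, plus strand), a delayed member with 0, are set beside the rapid members.
Fos: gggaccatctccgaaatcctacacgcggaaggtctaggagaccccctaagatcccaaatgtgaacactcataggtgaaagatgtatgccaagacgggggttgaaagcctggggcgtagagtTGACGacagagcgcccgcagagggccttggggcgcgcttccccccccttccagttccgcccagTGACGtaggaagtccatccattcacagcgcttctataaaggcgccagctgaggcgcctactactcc
Nr4a1: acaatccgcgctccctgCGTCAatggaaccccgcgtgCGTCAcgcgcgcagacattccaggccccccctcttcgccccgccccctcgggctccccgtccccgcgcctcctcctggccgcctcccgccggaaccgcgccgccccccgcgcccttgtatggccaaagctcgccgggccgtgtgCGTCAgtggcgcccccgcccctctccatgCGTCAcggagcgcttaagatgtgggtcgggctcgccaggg
Npas4: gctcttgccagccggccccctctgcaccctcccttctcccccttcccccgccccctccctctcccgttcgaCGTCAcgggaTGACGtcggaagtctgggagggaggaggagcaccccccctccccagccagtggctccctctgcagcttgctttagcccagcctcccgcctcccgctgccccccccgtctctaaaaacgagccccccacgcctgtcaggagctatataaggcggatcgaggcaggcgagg
Nr4a2: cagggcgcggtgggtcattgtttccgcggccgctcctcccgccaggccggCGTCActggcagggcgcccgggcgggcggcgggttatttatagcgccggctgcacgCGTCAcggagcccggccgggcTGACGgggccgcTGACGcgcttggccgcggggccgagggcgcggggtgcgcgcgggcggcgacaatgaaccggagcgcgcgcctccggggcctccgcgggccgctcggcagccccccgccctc
Inhba: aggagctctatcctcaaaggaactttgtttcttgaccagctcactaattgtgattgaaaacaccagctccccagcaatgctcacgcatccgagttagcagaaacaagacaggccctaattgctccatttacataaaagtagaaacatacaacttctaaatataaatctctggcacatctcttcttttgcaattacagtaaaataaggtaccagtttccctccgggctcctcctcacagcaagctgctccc

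Levels per length were compared as RPKM, the CPM divided by the gene's length in kilobases, averaged over the 20 libraries. Plk2, a kinase that weakens overactive synapses, was highest at 73.8 RPKM, followed by Arc at 62.7, Jund at 54.7, Egr1 at 46.9 and Nr4a1 at 46.5. Atf3, a stress-induced factor, was lowest at 0.569, and Maff, Pim1, Inhba and Crem all stood below 2 RPKM. Fos itself stood at 11.6 RPKM. Egr2, a zinc-finger factor, covered the widest range, from 1.11 CPM in ICI replicate 4 to 29.0 CPM in melanoma plus ICI replicate 1, a ratio of 26.1. Rheb, a small GTPase upstream of mTOR, covered the narrowest, with a ratio of 1.83 between its highest and lowest library.

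**Figure D1:**
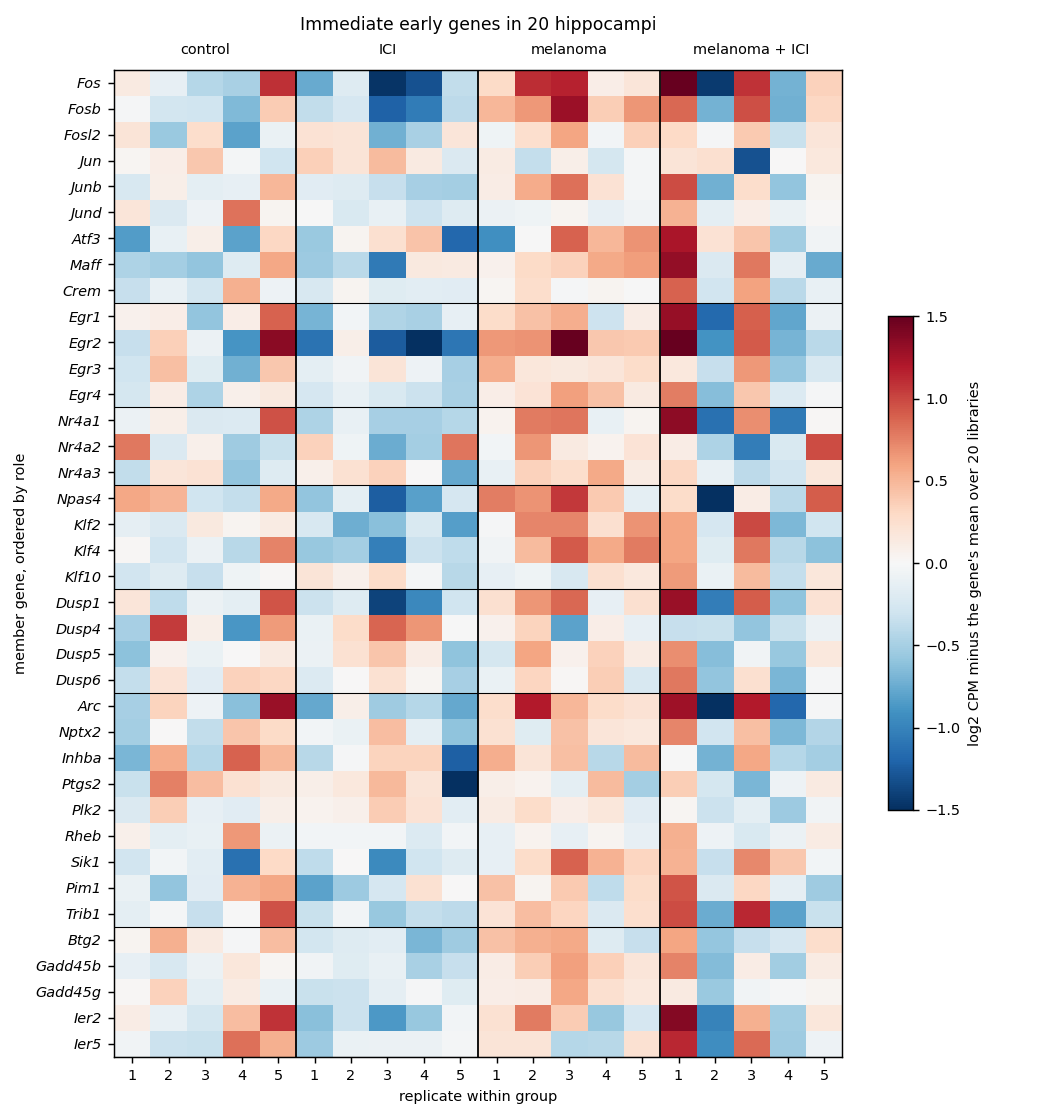
Level of each of the 38 members (vertical axis, ordered by role) in each of the 20 libraries (horizontal axis, replicates by group), as log2 CPM minus the gene's mean over all libraries, with colours clipped at 1.5 in either direction. Most rapid members are red in melanoma plus ICI replicate 1 and blue in replicate 2, and Fos is lowest in ICI replicate 3 at 8.05 CPM.

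No member differed between groups at an adjusted p under 0.05 in the 8 comparisons made, by edgeR, DESeq2 or limma voom. For all but 2 members the groups overlapped in each of the 5 comparisons between a pair of groups. Of all genes, 0.147% to 0.901% were without overlap in a given direction and comparison. Fos, the AP-1 subunit most used to mark active neurons, averaged 25.3 ± 13.3 CPM in the control group (SD, n = 5), 13.5 ± 5.05 after ICI alone, 35.1 ± 13.1 with melanoma alone and 35.5 ± 28.8 with both. By library it stood at 24.7, 20.7, 16.7, 16.01 and 48.1 CPM in control replicates 1 to 5, at 13.3, 19.6, 8.05, 9.02 and 17.4 in ICI, at 27.4, 48.7, 50.04, 24.1 and 25.4 in melanoma, and at 79.1, 8.23, 47.7, 13.8 and 28.5 in melanoma plus ICI. The 5 melanoma libraries all lay above the 5 ICI libraries, a pair seen after the fact that differs in both tumour and treatment. It is not among the 8 comparisons and was not tested, and the share of all genes without overlap was not computed for it. Melanoma plus ICI held both the highest and the second lowest value among the 20 libraries.

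Npas4, a factor induced by calcium entry in neurons, stood at 28.9, 27.6, 15.8, 15.1 and 28.7 CPM in control, at 12.9, 17.4, 8.14, 11.00 and 16.2 in ICI, at 32.96, 30.98, 40.5, 25.4 and 17.4 in melanoma, and at 23.4, 6.44, 20.9, 14.6 and 36.5 in melanoma plus ICI. The control and ICI groups overlapped for Npas4 between 15.1 and 17.4 CPM. Egr1, a zinc-finger factor of synaptic plasticity on chromosome 18, stood at 200.3, 206, 128, 206 and 356 CPM in control, at 119, 187, 141, 137 and 176 in ICI, at 233, 260.4, 281, 155 and 208 in melanoma, and at 475, 85.8, 358, 111 and 181 in melanoma plus ICI. Its 2 highest libraries after melanoma plus ICI replicate 1 were melanoma plus ICI replicate 3 and control replicate 5.

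Nr4a1, an orphan nuclear receptor, stood at 97.8, 111, 89.7, 90.4 and 203 CPM in control, at 75.3, 96.4, 74.02, 73.96 and 77.6 in ICI, at 108, 179, 181, 96.9 and 108 in melanoma, and at 265, 48.1, 169, 49.99 and 106 in melanoma plus ICI. The ICI group held 4 libraries between 74.0 and 77.6 CPM and was the tightest of the 4 groups for this gene. Junb, an AP-1 subunit, stood at 68.6, 85.8, 72.95, 74.1 and 114 CPM in control, at 71.6, 70.5, 63.3, 57.2 and 56.7 in ICI, at 87.5, 118, 143, 93.6 and 79.3 in melanoma, and at 159.9, 49.1, 96.7, 53.4 and 83.1 in melanoma plus ICI. Junb is uncertain, because it overlaps Prdx2 on the opposite strand, whose counts were 186% of its own, and the use of strand in counting is not given in the sources used here. Arc, which encodes a capsid-like protein that removes AMPA receptors from synapses, stood at 116, 206, 155, 106 and 402 CPM in control, at 96.2, 175, 112.975, 122 and 96.4 in ICI, at 197, 375, 231, 198 and 190.4 in melanoma, and at 396, 49.4, 373, 72.2 and 162 in melanoma plus ICI. Arc was highest in control replicate 5, followed by melanoma plus ICI replicate 1.

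The 3 delayed index members follow. Nptx2, a secreted pentraxin that clusters AMPA receptors, stood at 22.3, 31.8, 24.5, 42.5 and 38.8 CPM in control, at 30.9, 29.6, 43.7, 28.7 and 20.9 in ICI, at 37.2, 27.9, 43.1, 36.01 and 35.4 in melanoma, and at 53.01, 26.1, 43.4, 19.9 and 23.5 in melanoma plus ICI. Inhba, the activin A subunit, stood at 2.16, 5.23, 2.60, 6.60 and 4.97 CPM in control, at 2.62, 3.49, 4.48, 4.49 and 1.47 in ICI, at 5.17, 4.05, 4.85, 2.63 and 4.95 in melanoma, and at 3.53, 2.12, 5.34, 2.61 and 2.45 in melanoma plus ICI. Nr4a2, an orphan nuclear receptor, stood at 110.1, 54.7, 67.03, 43.96 and 50.3 CPM in control, at 80.4, 60.7, 37.7, 44.4 and 111 in ICI, at 61.5, 100.3, 69.4, 65.9 and 73.4 in melanoma, and at 68.7, 46.1, 30.7, 54.02 and 125 in melanoma plus ICI. All 4 groups overlapped for these 3 genes.

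**Figure D2:**
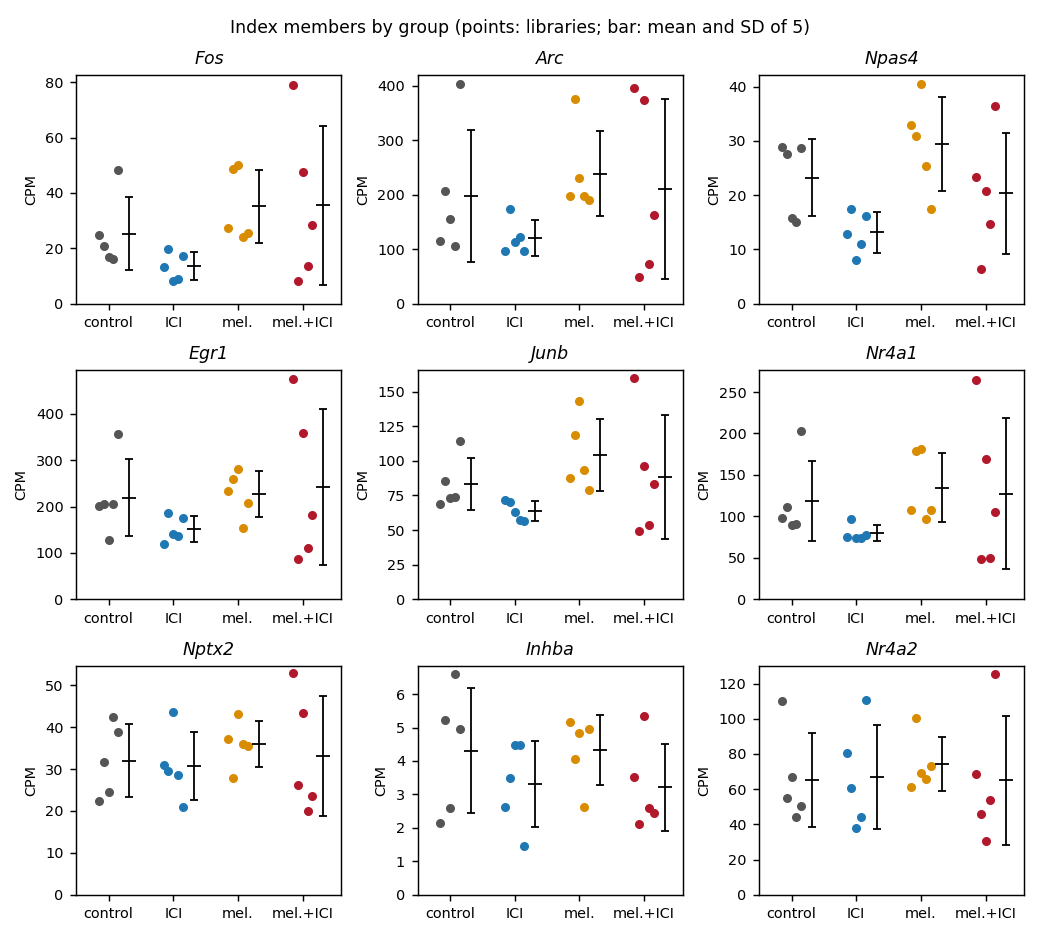
CPM (vertical axis, from 0) of 6 rapid and 3 delayed members in each library by group (horizontal axis: control, ICI, melanoma, melanoma plus ICI), with the mean and SD of 5 libraries beside the points. Fos, Npas4, Egr1 and Nr4a1 are tightest in ICI and widest in melanoma plus ICI, where Fos runs from 8.23 to 79.1 CPM.

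Comparing ICI with control asks what checkpoint inhibition does in mice without a tumour. The estimated log2 fold change, from edgeR's quasi-likelihood test, was above 0 for 9 of 38 members (48% of all genes) and below 0 for 29, with a median of -0.27 beside -0.01 over all tested genes. No member passed an adjusted p of 0.05 (0% of all genes did), and at an unadjusted p under 0.05 there were 0 higher and 5 lower members, where 2.08% of all genes were higher and 3.15% lower. The 5 were Btg2, Npas4, Jund, Klf4 and Ier2. Jund stood at 157.8 CPM in control replicate 4, at 77.1 to 101.7 in the other controls and at 72.2 to 89.6 in ICI. Btg2, an antiproliferative factor, had the smallest p, at -0.61 on the log2 scale (SE 0.22, adjusted p 0.767). It stood at 20.4, 28.5, 21.7, 19.5 and 27.3 CPM in control and at 16.3, 17.2, 17.7, 12.3 and 13.6 in ICI, with no overlap. Klf2, a Krüppel-like factor, was the other member whose groups did not overlap, at 7.36 to 9.52 CPM in control and 4.80 to 7.33 in ICI, as 0.467% of all genes did in the lower direction and 0.418% in the higher. Endothelial cells, which express Klf2 and Klf4, had lower marker levels in the same comparison. The endothelium score, the mean log2 CPM of 6 markers, was 4.56 ± 0.142 in ICI and 4.84 ± 0.143 in control (SD, n = 5). The summed levels were 148.3 to 187.8 and 183.8 to 222.7 CPM, and all 6 markers passed the filter on low counts. The red blood cell score of 5 genes was 0.162 ± 1.47 in ICI and 1.56 ± 0.741 in control, with summed levels of 1.501 to 18.2 and 11.1 to 46.7 CPM. The part of blood vessels and blood in the levels of the members was not tested. Rapid members had a median log2 fold change of -0.51 and 19 of 21 below 0, and delayed members a median of -0.06 and 8 of 15 below 0. The 5 lower members became 2 with the neocortex score as a covariate (2.4% of all genes) or with the dentate gyrus, striatum and neocortex scores (2.39%), 13 when only these groups were fitted (2.54%) and 8 under DESeq2 (3.48%). Leaving out 1 library gave 2 without ICI replicate 3 (3.09% of all genes), 3 without control replicate 5 (2.92%), 8 without melanoma plus ICI replicate 1 (3.89%) or 4 (3.24%) and 9 without melanoma plus ICI replicate 2 (3.26%). The median was -0.12 with the neocortex score or with the 3 tissue scores as covariates and -0.16 under voom.

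Averaged over mice with and without a tumour, the ICI effect was above 0 for 4 of 38 members (49.5% of all genes) and below 0 for 34, and its median was -0.19 on the log2 scale, beside 0.00 over all genes. At an adjusted p of 0.05 there were 0 members (0% of all genes), and at an unadjusted p under 0.05 there were 0 higher members (0.961% of all genes) and 5 lower (1.23%). The 5 were Gadd45g, Npas4, Btg2, Klf4 and Klf2. Gadd45g, a growth arrest factor with little spread between mice, led at -0.29 (SE 0.09, adjusted p 1). Among the index members the estimate was lowest for Npas4, at -0.68 (SE 0.24), followed by Fos at -0.45 (SE 0.33), Arc at -0.44 (SE 0.33), Inhba at -0.41 (SE 0.24), Nr4a1 at -0.33 (SE 0.26), Junb at -0.31 (SE 0.18) and Egr1 at -0.22 (SE 0.25). Nptx2 at -0.09 (SE 0.18) and Nr4a2 at -0.08 (SE 0.24) were closest to 0. The 5 lower members became 18 under voom (4.74% of all genes), 15 with the neocortex score as a covariate (1.86%), 12 with the 3 tissue scores (1.51%) and 14 without melanoma plus ICI replicate 1 (1.81%) or without that library and control replicate 4 (1.96%). Without melanoma plus ICI replicate 3 there were 8 (2.58%). The median was -0.30 under voom, -0.28 without melanoma plus ICI replicate 1, and -0.12 without its replicate 2 or without control replicate 5. Single libraries moved most index estimates by over 1.5 times, but Npas4 ran only from -0.84 to -0.56 and Inhba from -0.54 to -0.31. Without melanoma plus ICI replicate 1 the estimates were -0.72 for Fos, -0.63 for Arc, -0.56 for Nr4a1, -0.48 for Junb, -0.42 for Egr1 and -0.21 for Nptx2. Without control replicate 5 they were -0.26 for Fos, -0.23 for Arc, -0.18 for Nr4a1 and -0.0964 for Egr1, and Nptx2 was at -0.02 without melanoma plus ICI replicate 4. Under voom Arc was at -0.89, Fos at -0.83, Nr4a1 at -0.62 and Egr1 at -0.49, and with the 3 tissue scores Inhba was at -0.19 and Nr4a2 at -0.34.

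Comparing melanoma with control asks what the tumour alone does. The estimate was above 0 for 29 of 38 members (48% of all genes), with a median of 0.19 on the log2 scale beside -0.01 over all genes. Again 0 members passed an adjusted p of 0.05 (0% of all genes), and 2 members were higher at an unadjusted p under 0.05 (2.7% of all genes) and 0 lower (2.41%). Fosb, an AP-1 subunit that persists after repeated activity, had the smallest p, at 0.87 on the log2 scale (SE 0.31, adjusted p 0.817). It stood at 17.6, 14.7, 14.4, 11.2 and 23.1 CPM in control and at 25.1, 27.99, 43.6, 22.99 and 28.2 in melanoma, so the groups touched only between control replicate 5 and melanoma replicate 4. Sik1, a salt-inducible kinase that restrains CREB coactivators, was the other, at 0.61 (SE 0.24, adjusted p 0.877). The 2 higher members became 8 with the 3 tissue scores as covariates (2.18% of all genes), 7 with the neocortex score (3.48%), 5 under voom (3.69%), 5 when only these groups were fitted (2.05%) and 1 without the 4 libraries with a high striatum score (1.17%). Leaving out 1 library gave 1 without melanoma replicate 3 (1.79%), 4 without control replicate 3 (2.61%), control replicate 5 (3.13%) or melanoma plus ICI replicate 1 (2.84%) or 2 (2.56%), and 5 without melanoma replicate 1 (2.32%). The median was 0.33 without control replicate 5 and 0.37 with the 3 tissue scores as covariates. For no member were the groups without overlap, where 0.554% of all genes were so in the higher and 0.483% in the lower direction.

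Comparing melanoma plus ICI with ICI asks what the tumour does under treatment. Its estimate was above 0 for 30 of 38 members (55% of all genes), with a median of 0.39 on the log2 scale beside 0.02 over all genes, and the median was 0.67 for rapid and 0.11 for delayed members. The adjusted p was under 0.05 for 0 members (0% of all genes), and at an unadjusted p under 0.05 there were 9 higher members (4.12% of all genes) and 2 lower (4.51%). The 9, all rapid, were Fosb, Egr2, Fos, Klf2, Dusp1, Sik1, Klf4, Ier2 and Egr4, and the 2 were Dusp4, a nuclear MAP kinase phosphatase, and Plk2. Fosb again had the smallest p, with 0.92 (SE 0.31, adjusted p 0.563), and its estimate was 0.41 with the dentate gyrus, striatum and neocortex scores as covariates, 0.42 under voom and 0.52 with the neocortex score alone. Egr2 had the largest estimate, 1.796 (SE 0.60, adjusted p 0.563). It stood at 29.0 CPM in melanoma plus ICI replicate 1, at 2.93 to 10.6 in the rest of that group and at 1.11 to 5.91 in ICI. The groups overlapped for all 38 members, where 0.586% of all genes were without overlap in the higher and 0.863% in the lower direction. The 9 became 3 without melanoma plus ICI replicate 1 (3.75% of all genes), 20 without replicate 2 of that group (4.92%), 4 without its replicate 3 (3.87%), 16 without its replicate 4 (4.08%) and 5 without ICI replicate 3 (2.38%). They were 0 under limma voom with quality weights (5.62%), 0 with the neocortex score as a covariate (3.02%), 0 with the dentate gyrus, striatum and neocortex scores (2.21%), and 3 without the 4 libraries with a high striatum score (3.21%) or without control replicate 4 and melanoma plus ICI replicate 1 (5.3%). The median was 0.14 without melanoma plus ICI replicate 1, 0.15 without that library and control replicate 4, 0.05 under voom, 0.09 with the neocortex score and 0.23 with the 3 tissue scores. Marker scores also differed in mean between these groups. In melanoma plus ICI and in ICI, the dentate gyrus score was 4.36 ± 0.667 and 5.62 ± 0.827 (SD, n = 5), the CA1 score 5.21 ± 0.638 and 5.92 ± 0.264, and the neocortex score 4.80 ± 0.827 and 4.31 ± 0.280. The meninges score was 4.22 ± 0.583 and 3.25 ± 0.700, the choroid plexus score 4.91 ± 2.05 and 3.63 ± 2.10, the striatum score 3.58 ± 1.03 and 2.84 ± 0.324, the red blood cell score 1.41 ± 0.736 and 0.162 ± 1.47, and the endothelium score 4.83 ± 0.189 and 4.56 ± 0.142. The part of these tissues in the levels of the members was not tested.

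Averaged over mice with and without ICI, the melanoma effect was above 0 for 32 of 38 members (49.8% of all genes) and for 20 of 21 rapid members. On the log2 scale its median was 0.26 over all members, 0.49 over rapid members, 0.14 over delayed members and 0.00 over all genes. By the adjusted p 0 members passed (0% of all genes), and at an unadjusted p under 0.05 there were 11 higher members (2.55% of all genes), all rapid, and 1 lower (1.79%), Dusp4. The 11 were Fosb, Sik1, Klf2, Klf4, Egr4, Egr2, Fos, Maff, Gadd45b, Dusp1 and Junb. Fosb led at 0.89 (SE 0.22, adjusted p 0.940), and Fos stood at 0.94 (SE 0.33, adjusted p 0.978). Over all alternatives the adjusted p of Fosb ran from 0.0953, under DESeq2, to 1. Arc at 0.54 (SE 0.33), Npas4 at 0.49 (SE 0.24), Nr4a1 at 0.43 (SE 0.26), Junb at 0.40 (SE 0.18) and Egr1 at 0.36 (SE 0.25) were also above 0, and Nptx2 at 0.14 (SE 0.18), Nr4a2 at 0.07 (SE 0.24) and Inhba at -0.02 (SE 0.24) were near 0. These estimates also moved with single libraries. Without melanoma plus ICI replicate 1 they were 0.66 for Fos, 0.35 for Arc, 0.23 for Junb, 0.20 for Nr4a1, 0.16 for Egr1 and 0.01 for Nptx2, and the median of the 38 members was 0.14. That median was 0.11 under voom and 0.14 with the neocortex score as a covariate. Without control replicate 5 they were 1.12 for Fos, 0.76 for Arc, 0.57 for Nr4a1 and 0.48 for Egr1. Under voom Fosb was at 0.59, Fos at 0.47, Npas4 at 0.31, Junb at 0.17, Egr1 at 0.0986, Nr4a1 at 0.0666 and Arc at 0.0645. The 11 became 7 without melanoma plus ICI replicate 1 (2.6% of all genes), 6 without that library and control replicate 4 (2.88%), 6 without the 4 libraries with a high striatum score (0.847%) and 4 under voom (2.88%). They were 13 with the 3 tissue scores as covariates (1.39%), 16 without control replicate 5 (2.7%) and 16 without melanoma plus ICI replicate 4 (2.54%).

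Some scores of other genes had a higher mean in melanoma than in control. A glucocorticoid response score, the mean log2 CPM of Fkbp5, Tsc22d3, Sgk1, Zbtb16, Pdk4 and Sult1a1, was 5.59 to 5.83 in the 5 melanoma libraries and 4.90 to 5.28 in the 5 controls, with no overlap. It was 4.95 to 5.33 in ICI and 4.75 to 5.88 in melanoma plus ICI. A heat shock score of 5 chaperone genes averaged 5.11 ± 0.379 in melanoma (SD, n = 5) and 4.65 ± 0.0949 in control. Melanoma replicate 1, at 4.53, lay below the 5 controls at 4.54 to 4.78. The striatum score averaged 4.54 ± 1.77 in melanoma and 2.81 ± 0.345 in control. Melanoma replicates 2 and 4, at 2.59 and 2.75, lay within the control range of 2.47 to 3.20. The part of stress hormone signalling, handling or dissection in the levels of the members was not tested.

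Comparing melanoma plus ICI with melanoma asks what ICI does in mice with a tumour. The estimate was above 0 for 12 of 38 members (53.5% of all genes) and below 0 for 26, with a median of -0.11 beside 0.02 over all genes. Here too 0 members passed an adjusted p of 0.05 (0% of all genes), and 0 members were higher (2.63% of all genes) and 2 lower (2.87%) at an unadjusted p under 0.05, Gadd45g and Plk2. Gadd45g led at -0.32 (SE 0.13, adjusted p 0.825), and its 5 melanoma libraries lay between 19.2 and 26.9 CPM, with melanoma plus ICI at 12.2 to 19.8. The groups of every member overlapped, where 0.635% of all genes were without overlap in the higher and 0.901% in the lower direction. The 2 lower members became 19 under limma voom with quality weights (7.85% of all genes), 6 without melanoma plus ICI replicate 1 (2.16%) or without that library and control replicate 4 (3.02%), and 5 with the neocortex score as a covariate (3.47%). They were 4 with the dentate gyrus, striatum and neocortex scores as covariates (1.95%). Without melanoma plus ICI replicate 3 they were 5 (4.74%), without replicate 5 they were 3 (2.43%), without replicate 2 they were 0 (2.55%), and without replicate 4 they were 1 (2.27%). Leaving out any 1 of melanoma replicates 1 to 4 also gave 1 (2.09% to 2.73%). The median was -0.35 without melanoma plus ICI replicate 1, -0.03 without replicate 2, -0.18 without replicate 3, -0.06 without replicate 5 and 0.00 without replicate 4. It was -0.07 and -0.05 without melanoma replicates 2 and 3, -0.18 without melanoma replicate 1, -0.42 under voom, -0.30 with the neocortex score and -0.29 with the 3 tissue scores.

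Melanoma plus ICI against control, the full combination, had 26 of 38 members above 0 (50.7% of all genes) and a median of 0.09 on the log2 scale, beside 0.00 over all genes. An adjusted p under 0.05 was reached by 0 members (0% of all genes), and 1 member, Klf10, a TGF-beta-inducible factor, was higher at an unadjusted p under 0.05 (1.1% of all genes), at 0.38 (SE 0.16, adjusted p 1.00), and 0 were lower (1.28%). The estimate of Klf10 was 0.24 without melanoma plus ICI replicate 1 and 0.24 under voom. The 1 higher member became 3 without control replicate 5 (0.934% of all genes) and without melanoma plus ICI replicate 2 (0.854%) or 5 (1.2%), and 2 without its replicate 4 (1.02%), control replicate 4 (2.7%) or ICI replicate 3 (1.11%). It became 0 without control replicate 1 (2.58%), 2 (0.693%) or 3 (0.821%), without melanoma plus ICI replicate 1 (1.4%) or 3 (1.22%), under voom (2.68%), with a replicate block (0.971%), with these groups alone (0.493%) and without the 4 libraries with a high striatum score (0.884%). Without control replicate 4 and melanoma plus ICI replicate 1 there were 0 higher (1.63%) and 3 lower (2.21%). Each member's groups overlapped, where 0.157% of all genes were without overlap in the higher and 0.147% in the lower direction. The direction of the median turned under several alternatives. It was -0.24 under voom, -0.18 without melanoma plus ICI replicate 1, -0.15 without that library and control replicate 4 and -0.07 with the neocortex score as a covariate, and it was 0.00 without the 4 libraries with a high striatum score or without melanoma plus ICI replicate 3. It was 0.21 without control replicate 5 and 0.22, 0.20 and 0.16 without melanoma plus ICI replicates 2, 4 and 5, and 0.02 without control replicate 1 or 3. For the interaction, the melanoma effect with ICI minus that without, 24 of 38 members were above 0 (52.8% of all genes), with a median of 0.13 beside 0.02 over all genes. After adjustment 0 members passed (0% of all genes), and 1 member was higher (5.99% of all genes) and 1 lower (4.28%) at an unadjusted p under 0.05. These were Jund, at 0.51 (SE 0.22, adjusted p 0.485), and Plk2, at -0.41 (SE 0.18, adjusted p 0.485). Jund stood at 157.8 CPM in control replicate 4 and at 77.1 to 101.7 in the other controls, and without that library its interaction estimate was 0.32. It was 0.19 without control replicate 4 and melanoma plus ICI replicate 1, 0.20 under voom, 0.23 with the 3 tissue scores and 0.29 with the neocortex score. The interaction's median was also below 0 under alternatives, at -0.20 under voom, -0.17 with the neocortex score, -0.12 with the 3 tissue scores, -0.07 without control replicate 4 and melanoma plus ICI replicate 1, and -0.06 without the latter alone. It was 0.00 without control replicate 5, and leaving out 1 library gave -0.06 to 0.26. These comparisons share libraries, so they are not separate evidence of one another.

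**Figure D3:**
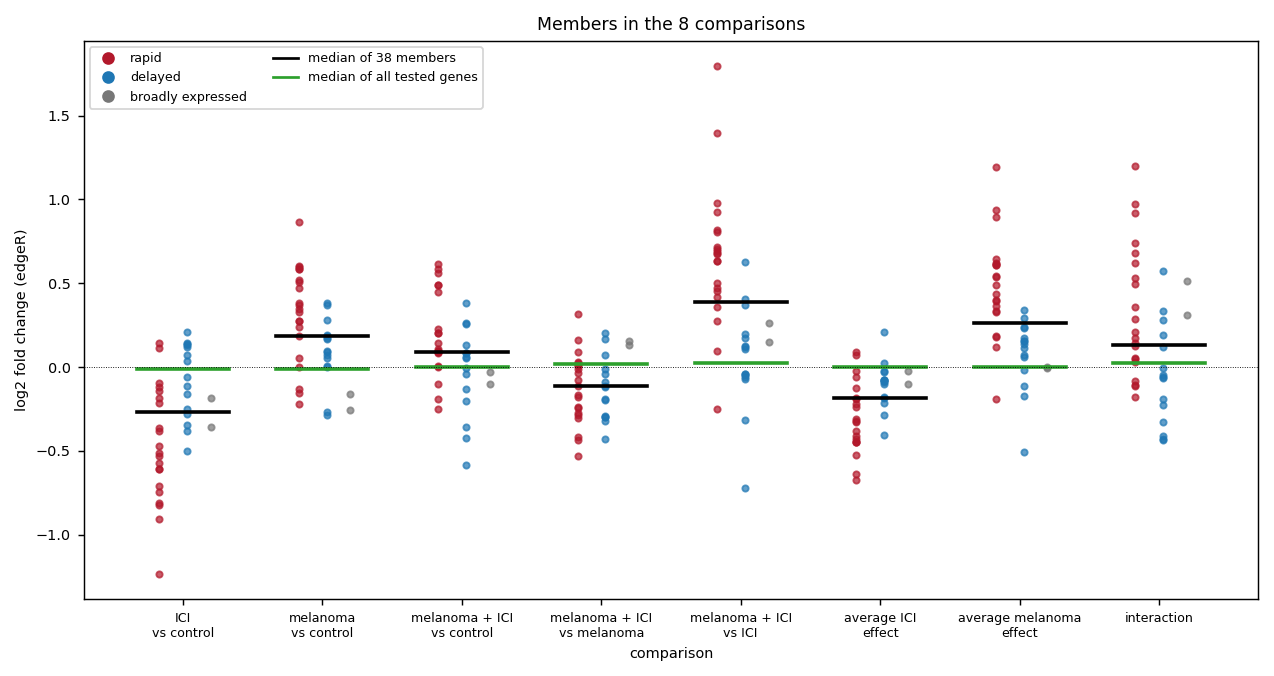
Log2 fold change of each member (points, by timing class) in the 8 comparisons (horizontal axis), with the median of the 38 members in black and of all tested genes in green. The rapid members lie furthest from 0 in melanoma plus ICI against ICI, where Egr2 reaches 1.796, and no point passed an adjusted p of 0.05.

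By role, the same estimates were uneven. In the average melanoma effect 49.8% of all genes were above 0, and several estimates fell without melanoma plus ICI replicate 1, as given above. Of the AP-1 and related bZIP factors 8 of 9 were above 0, with Jun the exception at -0.19, and their median was 0.40. All 4 EGR factors (median 0.38), all 4 of Npas4, Klf2, Klf4 and Klf10 (median 0.55), all 3 NR4A receptors (median 0.16) and all 5 growth arrest and stress genes (median 0.18) were above 0. Among the 4 MAP kinase phosphatases, which switch off MAP kinases, Dusp1 was at 0.61 (SE 0.26) and Dusp4 at -0.51 (SE 0.20). Of the 9 synaptic, secreted and signalling effectors 5 were above 0, with a median of 0.14.

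Differences between mice of the same group were larger for the members than for most genes. The within-group SD of log2 CPM, over 20 libraries and 4 group means, had a median of 0.44 for the members and 0.26 for all tested genes. It lay above the median of all genes for 34 of 38 members and above their 75th percentile for 19 of 38 (50%, beside 25% of all genes). Above the 90th percentile lay 3 of 38 (7.89%, beside 10% of all genes), and the same 3 lay above the 95th (beside 5%). These 3 were Egr2 (SD 0.95), Arc (0.83) and Fos (0.83), and the least variable were Gadd45g (0.21) and Plk2 (0.21). The median was 0.55 for rapid and 0.40 for delayed members. The largest SDs among delayed members were those of Inhba and Nr4a2, at 0.57 each.

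The spread was unequal between groups. Melanoma plus ICI held the largest of the 4 group SDs for 27 of 38 members (71.1%) and for 18 of 21 rapid members (85.7%), where it did so for 28.1% of all genes. Over all genes the control group was most often the widest, for 48.5%, and it was so for 8 of 38 members. The median SD of the rapid members on the log2 scale was 0.82 in melanoma plus ICI, 0.49 in control, 0.37 in melanoma and 0.28 in ICI. Without melanoma plus ICI replicate 1 the first of these was 0.72, while the median over all genes in that group went from 0.27 to 0.21. Whether the spread differed between groups was not tested.

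Within melanoma plus ICI, most members were highest in replicate 1, and replicate 2 was the library most often lowest. Of the 5 libraries, replicate 1 was the highest for 26 of 38 members (68.4%, beside 29.7% of all genes) and replicate 2 the lowest for 18 (47.4%, beside 15.8%). Over all 20 libraries replicate 1 was the highest for 19 members (50%, beside 6.24% of all genes) and replicate 2 the lowest for 11 (28.9%, beside 3.8%). Single libraries also stood out in other groups. Control replicate 5 was the highest of its group for 18 members (47.4%, beside 14.7% of all genes) and the lowest for 1, and melanoma replicate 3 was the highest for 18 (47.4%, beside 24%). In ICI the library most often highest was replicate 2, for 12 members (31.6%, beside 17.1%). Among the 21 rapid members, control replicate 5, melanoma replicate 3 and melanoma plus ICI replicate 1 were each the highest of their group for 14. The rapid score, the mean log2 CPM of the 21 rapid members, was 5.44, 3.74, 5.01, 3.95 and 4.46 in melanoma plus ICI replicates 1 to 5. The neocortex score of 6 upper- and deep-layer markers was 5.55, 4.16, 5.84, 4.12 and 4.34 in the same libraries, high in the same 2. In control, replicate 5 had the highest rapid score, 5.05 against 4.21 to 4.46, and a neocortex score of 5.27, while replicate 4 had a neocortex score of 5.23 with the lowest rapid score, 4.21. The part of neocortical tissue in the spread of the members was not tested.

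Within groups, 9 of the other 37 members went up and down with Fos. For each gene the log2 CPM was related to that of Fos after the group means were removed, with limma and adjustment over 18426 genes. The 9 passed an adjusted p of 0.05 with a positive sign, which 0.109% of all genes did (20 genes), and 0 members with a negative sign (0.0109%, 2 genes). Dusp1, which dephosphorylates MAP kinases, was closest, with a Pearson r of 0.97 and a Spearman rho of 0.95 (adjusted p 1.323e-07, permutation p 1e-05, the smallest that 100000 permutations within groups can give). Nr4a1 followed with r 0.95 and rho 0.90 (adjusted p 3.017e-06, permutation p 1e-05), then Fosb with r 0.92 and rho 0.95 (adjusted p 5.631e-05, permutation p 2e-05). Next came Egr1 at 0.92, Ier2 at 0.91, Junb at 0.89, Arc at 0.87, Trib1 at 0.86 and Egr2 at 0.86. Trib1, a pseudokinase that promotes protein breakdown, was the only delayed member among them. The permutation p, for r and for rho, was 5e-05 and 0.00048 for Egr1, 0.00019 and 0.0018 for Junb, and 0.00023 and 0.00534 for Arc, among 13 relations permuted. Without the 2 libraries whose Fos was farthest from the median (melanoma plus ICI replicate 1 at 79.1 CPM and ICI replicate 3 at 8.05 CPM), r was 0.96 for Dusp1, 0.94 for Nr4a1, 0.92 for Fosb, 0.91 for Egr1, 0.87 for Junb and 0.86 for Arc.

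**Figure D4:**
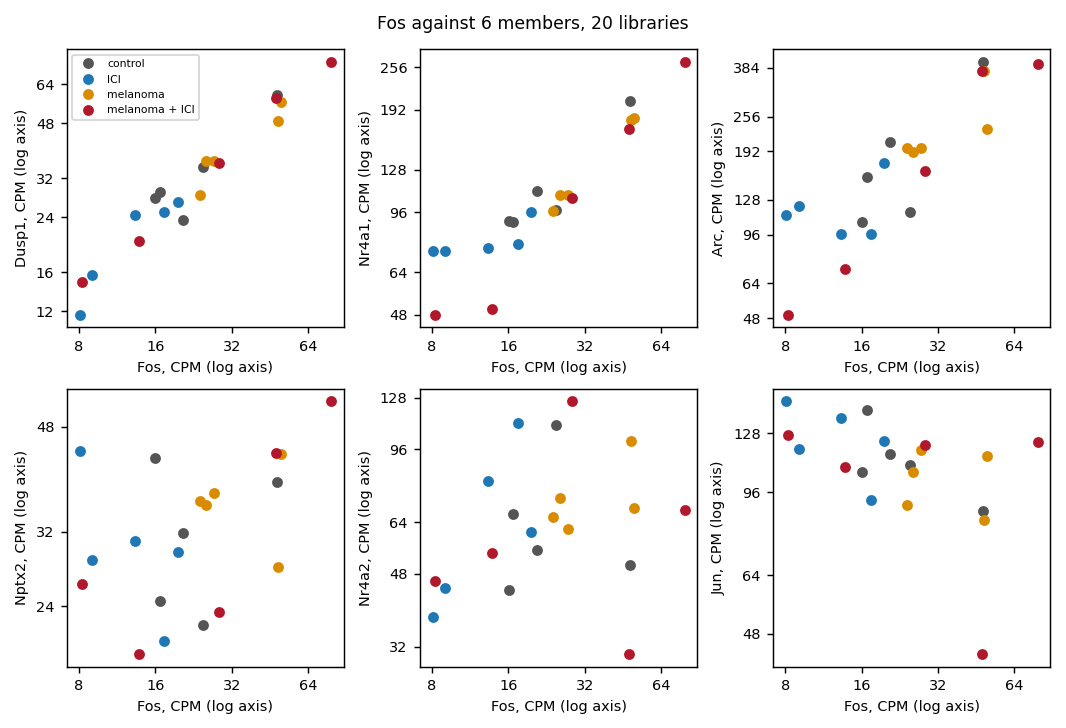
CPM of 6 members (vertical axes, log scale) against CPM of Fos (horizontal axes, log scale) in the 20 libraries, coloured by group. Over the 20 libraries Dusp1, Nr4a1 and Arc climb with Fos, Arc least within ICI, while Nptx2 and Nr4a2 scatter and Jun has its lowest value, 43.5 CPM, at a Fos level of 47.7.

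Members held 7 of the 10 highest r values of all tested genes, 9 of the top 20 and 12 of the top 50, where members are 0.201% of tested genes. The remaining 28 members did not pass. Npas4 had r 0.76 and rho 0.82 (adjusted p 0.0759, permutation p 0.00223), and Egr4 and Gadd45b had r 0.76 each, with adjusted p values of 0.103 and 0.112. The median r was 0.76 over 20 rapid members, 0.39 over 15 delayed members and -0.01 over all genes. Jun, the classical partner of Fos in AP-1, had the lowest r of the members, -0.41 (rho -0.31, adjusted p 0.521, permutation p 0.305), and its sign was negative with 28 of 37 other members. Ptgs2, the inducible cyclooxygenase, had -0.13, Dusp4 -0.05, Nr4a3 0.05, Inhba 0.18, Nr4a2 0.24 and Nptx2 0.39. Without the 2 farthest libraries Jun had -0.63, Ptgs2 -0.26, Inhba 0.23, Nr4a2 0.13 and Nptx2 0.30. Single libraries moved the 3 delayed index members: r was 0.16 for Nptx2 without melanoma plus ICI replicate 1 and 0.52 without ICI replicate 3, 0.06 and 0.07 for Inhba without melanoma plus ICI replicates 2 and 3 and 0.30 without ICI replicate 5, and 0.43 for Nr4a2 without melanoma plus ICI replicate 3.

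**Figure D5:**
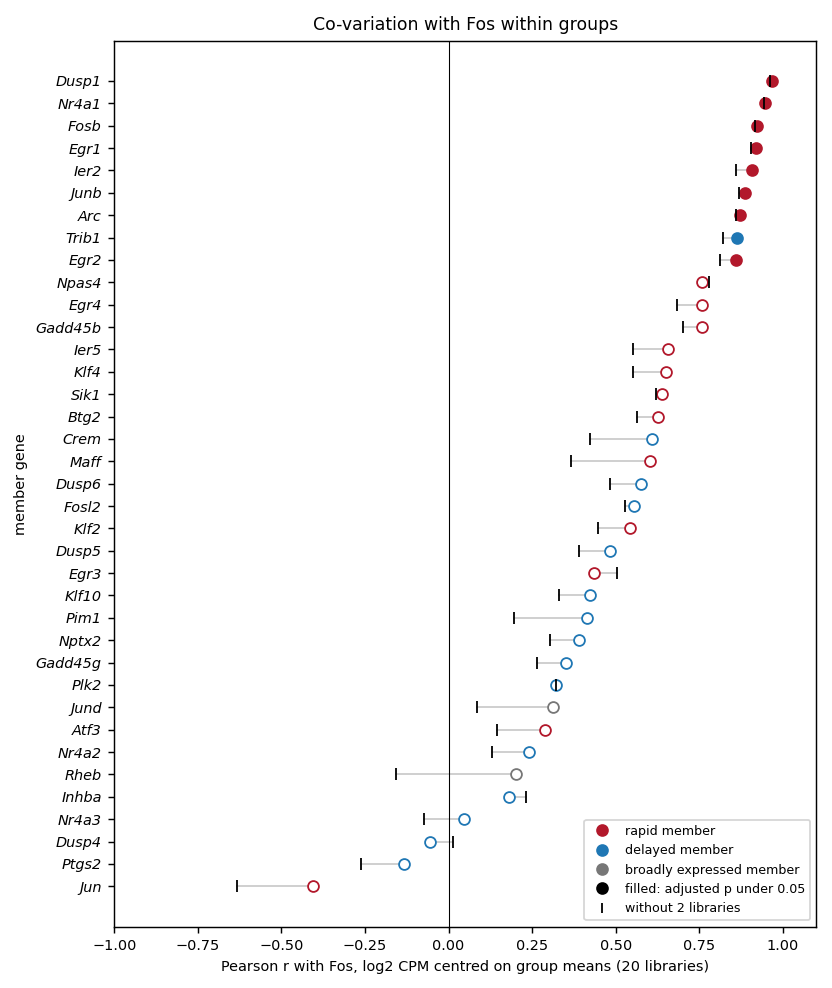
Pearson r with Fos (horizontal axis) of the other 37 members (vertical axis, sorted), from log2 CPM centred on group means in 20 libraries, coloured by timing, filled where the adjusted p was under 0.05, with a tick for r without the 2 libraries farthest in Fos. The 9 filled points run from Egr2 at 0.86 to Dusp1 at 0.97, and Jun is lowest at -0.41.

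Within single groups of 5 libraries r is given as a description. In melanoma plus ICI it was 0.997 for Dusp1, 0.98 for Nr4a1 and 0.98 for Arc, and in ICI it was 0.94 for Dusp1, 0.74 for Nr4a1 and 0.28 for Arc. Without the 5 melanoma plus ICI libraries only Dusp1 passed, in place of 9 (2 of 18040 genes, in place of 22 of 18426). There r was still 0.88 for Nr4a1, 0.79 for Egr1, 0.73 for Junb and 0.67 for Arc, and it was -0.17 for Nptx2 and -0.16 for Inhba. Without control replicate 4 the 9 became 14, adding Crem, Egr4, Npas4, Gadd45b and Ier5, while the genes that passed rose to 615 of 18606. Over the 15 tissue and stress scores, the neocortex score was the closest to Fos, with r 0.70 (rho 0.66, permutation p 0.00959, adjusted over the 15 lists 0.144), and 0.65 without the 2 farthest libraries. With the neocortex score as a covariate 8 members passed, among 9 of 18426 genes: Fosb, Junb, Egr1, Egr2, Nr4a1, Npas4, Dusp1 and Arc. The glucocorticoid score had r 0.45 with Fos (adjusted permutation p 0.508) and the heat shock score 0.20 (adjusted permutation p 0.543).

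Rapid members varied more with one another than delayed members did. The median r over pairs was 0.59 for 210 rapid pairs, of which 189 were positive, 0.34 for 105 delayed pairs, of which 74 were positive, and 0.36 for 315 mixed pairs. These pairs share libraries and depth, and they are given as a description. The closest pairs that do not include Fos were Junb with Nr4a1 at 0.95, Egr1 with Nr4a1 at 0.94, Fosb with Dusp1 at 0.94 and Nr4a1 with Arc at 0.93. Among delayed members Dusp5 and Dusp6, phosphatases of the MAP kinase pathway, were closest, at 0.90. Nptx2 was nearer to Klf10 (0.78), Dusp6 (0.78), Egr4 (0.76), Crem (0.73) and Inhba (0.73) than to Fos. Nr4a2 had the lowest r of all pairs, -0.71 with Inhba, and -0.59 with Nptx2, and its highest was 0.50 with Fosl2. Its sign was negative with 23 of 37 members. The rapid score and the delayed score had r 0.79 and rho 0.66 over 20 libraries with group means removed, 0.71 without the 2 libraries farthest in the rapid score, and 0.40 over the 15 libraries outside melanoma plus ICI.

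Among genes outside the list the closest to Fos was 1700016P03Rik (chr11:75172560-75177633, plus strand), a noncoding transcript, with r 0.95 and rho 0.94 (adjusted p 3.017e-06, permutation p 1e-05, r 0.94 without the 2 farthest libraries). It ran from 2.67 to 20.4 CPM. By coordinates it contains the hairpins of miR-212 and miR-132, a pair of microRNAs induced by CREB in neurons, and their mature 3p strands are shown because they share a seed, bases 2 to 8, in capitals.
miR-132-3p: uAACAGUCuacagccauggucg
miR-212-3p: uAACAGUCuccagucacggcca
The reads counted are those of the host transcript, at 56 to 497 per library, with 5 to 30 on the miR-132 hairpin and 20 to 79 on the miR-212 hairpin. They are not counts of the mature microRNAs.

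The other 9 nearest genes outside the list were Midn (r 0.91, adjusted p 0.00122), Ccn1 (0.89, 0.000674), Il17ra (0.85, 0.00775), Ell2 (0.83, 0.0332), Gm28175 (0.82, 0.0279), Insig1 (0.82, 0.0696), D930016D06Rik (0.82, 0.103), Frmd6 (0.82, 0.0236) and Plk3 (0.81, 0.0274). Midn encodes midnolin, which carries immediate early gene proteins to the proteasome, and it ran from 53.8 to 91.9 CPM. Ccn1, a matricellular protein, ran from 3.05 to 20.3 CPM. Plk3 is a kinase related to Plk2.

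A further list of 20 symbols of activity-regulated genes held 19 genes, because Ccn1 and Cyr61 name the same gene, and all 19 were tested. It gave 2 genes with an adjusted p under 0.05 for the relation with Fos, Ccn1 and Csrnp1, and a median r of 0.42. Csrnp1 is uncertain because it overlaps Cx3cr1 on the same strand, whose counts were 281% of its own. Per1, a clock gene, had r 0.68 (adjusted p 0.177), and Homer1, a synaptic scaffold with a short activity-induced form, had 0.68 (adjusted p 0.199). Bdnf, the neurotrophin, had -0.06. Between groups 0 of the 19 had an adjusted p under 0.05 in the 8 comparisons. At an unadjusted p under 0.05, 8 were higher in the average melanoma effect (2.55% of all genes) and 0 lower (1.79%). In melanoma plus ICI against ICI 5 were higher (4.12%) and 0 lower (4.51%), and in melanoma against control 4 were higher (2.7%) and 0 lower (2.41%). In ICI against control Ccn1 was the one whose groups did not overlap (0.467% of all genes in the lower direction), at -1.003 on the log2 scale (SE 0.35, adjusted p 0.767). In melanoma against control it was Errfi1, a feedback inhibitor of the EGF receptor (0.554% in the higher direction), at 0.44 (SE 0.12, adjusted p 0.642).

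Of 20 upstream regulators, such as Creb1, Srf and the NMDA receptor subunits, 0 passed for the relation with Fos or in any comparison between groups, and their median r was -0.25. Mef2c, a factor that binds activity-regulated enhancers, had the highest r, 0.60 (adjusted p 0.273). In melanoma plus ICI against ICI, 9 of the 20 were lower at an unadjusted p under 0.05, beside 4.51% of all genes, with Mef2d at -0.33 (SE 0.11, adjusted p 0.563). In that comparison the hippocampal excitatory neuron score averaged 6.64 ± 0.582 in melanoma plus ICI and 7.28 ± 0.379 in ICI (SD, n = 5). The part of the neuron score in the regulator levels was not tested.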

How the data were processed

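Bulk RNA-seq was deposited as 1 table per library. Per the labels, the deposited values are raw counts per gene, and they are whole numbers in a layout with coordinates, strand and gene length. Per the submitters' processing notes, STAR 2.5.2b and DESeq2 1.16.1 were used, with no role stated. The counting program, the genome build, the use of strand and the handling of multimapping reads are not given in the sources used here. The gene length used for RPKM is that of the deposited tables, and how it was made is not stated there. Of the 49671 identifiers 345 matched no symbol, and they held 0.0702% of the counts.

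Counts were tested with edgeR 4.0.16 in R 4.3.3, as a robust quasi-likelihood fit with 1 mean per group over all 20 libraries. TMM factors ran from 0.956 to 1.04, genes were kept by filterByExpr with a minimum count of 10 and a total of 15, and p-values were adjusted by Benjamini-Hochberg over 18427 genes. The 8 comparisons were 5 between pairs of groups, the averaged ICI and melanoma effects and their interaction. Co-variation with Fos used limma 3.58.1 on log2 CPM with a prior count of 2, group as a factor and Fos as a covariate. Permutations shuffled libraries within groups 100000 times. Scores are mean log2 CPM of a list. The programs were tested on simulated data. Each library is a hippocampus of a separate mouse, per the labels. Means are over 5 animals, and their SDs hold both differences between animals and counting error.

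The members, the timing and role classes, the other lists and the tests were chosen with earlier results of these data known. Named members are 9 index genes, the member with the smallest p in each comparison, the 2 with the largest and the 2 with the smallest within-group SD, the 3 with the highest and the 3 with the lowest r with Fos, and the 10 nearest genes outside the list with a mean of at least 1 CPM. Other genes were named after their values were seen. Alternatives were DESeq2 1.42.0, voom, other scaling, no filter, the 2 groups alone, a replicate block, tissue scores as covariates, and leaving libraries out. After seeing the data, the neocortex covariate, the fit without the melanoma plus ICI libraries and the fit without 4 libraries rich in striatal markers were added.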

Additional observations from a re-analysis of the deposited data

Results flagged for a closer look

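In 7 of 80 groups of 5 libraries, 1 value lay further from the rest than Dixon's criterion allows, where chance gives about 4. Arc stood at 375 CPM in melanoma replicate 2, with the others at 190 to 231. Nr4a1 stood at 203 CPM in control replicate 5, with the others at 89.7 to 111, and at 96.4 CPM in ICI replicate 2, with the others at 74 to 77.6. Egr2 stood at 19.1 CPM in melanoma replicate 3, with the others at 7.29 to 8.87. Gadd45g stood at 12.2 CPM in melanoma plus ICI replicate 2, with the others at 17.3 to 19.8. Ptgs2 stood at 5.47 CPM in ICI replicate 5, with the others at 18.2 to 23.9. Jun stood at 43.5 CPM in melanoma plus ICI replicate 3, with the others at 109 to 127, and this library held high Fos and Arc. Jund moved in opposite directions with melanoma in mice without and with ICI, a difference of 0.451 on the log2 scale that was not tested in that form, and the edgeR interaction gave 0.51 with an adjusted p of 0.485. Without control replicate 4, where Jund stood at 157.8 CPM and the other controls at 77.1 to 101.7, the interaction estimate was 0.32, and without that library and melanoma plus ICI replicate 1 it was 0.19.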

How the results depend on the processing

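No alternative brought a member past an adjusted p of 0.05 in any comparison, DESeq2 and voom included. Under limma voom with quality weights the median log2 fold change of the members was -0.24 in melanoma plus ICI against control, 0.0541 in the same group against ICI and -0.20 in the interaction. The average melanoma effect of Inhba, -0.02, was 0.0643 under voom, 0.0653 with the dentate gyrus, striatum and neocortex scores as covariates and 0.0648 without control replicate 4 and melanoma plus ICI replicate 1, and that of Nptx2 was -0.00343 without the 4 libraries with a striatum score above 5. Leaving out 1 library at a time gave -0.15 to 0.0824 for Inhba and -0.12 to 0.20 for Nr4a2 in the melanoma effect, and -0.27 to 0.0581 for Nr4a2 in the ICI effect. The 9 members that varied with Fos, among 22 of 18426 genes, were 16 with no group term (100 genes) and 4 by Spearman ranks (9 genes). They were 1 without the 5 melanoma plus ICI libraries (2 of 18040 genes) and 9 to 14 when 1 library was left out (13 to 615 genes). By Spearman ranks Arc (0.73) and Junb (0.75) did not pass. Without the 5 melanoma plus ICI libraries Arc (0.67), Egr1 (0.79), Junb (0.73) and Nr4a1 (0.88) did not pass, and Nptx2 (-0.17) and Inhba (-0.16) changed sign. Npas4 passed with no group term (0.81), with the 3 tissue scores (0.84), with the neocortex score (0.82) and without control replicate 4 and melanoma plus ICI replicate 1 (0.78), and leaving out 1 library gave 0.63 to 0.84, with a pass in 3 of these fits. Inhba had -0.00552 with the 3 tissue scores and -0.0865 with the neocortex score. The labels do not say whether replicate numbers pair the animals. Libraries of the same number had a mean correlation of 0.0317 over 30 pairs, 10 of them above 0.1, beside -0.00678 over other pairs. Of the 20 libraries, 6 were closest to their own number. Whether the numbers mark a shared batch was not tested. With a replicate block 8 members varied with Fos in place of 9, Trib1 being lost (11 of 18426 genes, in place of 22). In that fit 0 members passed in any comparison between groups. Counting error weighs most on the lowest members, Atf3 at 1.23 and Maff at 1.62 CPM, whose variation between libraries beyond counting was 0.403 and 0.367 (CV).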
